A study of Mus musculus with 4 samples.

Results

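The genes described here are 36 neighbours on mouse chromosome 8, listed from Mfhas1 to Clcn3. They were chosen by the differences between EGCG-resistant and original cells in these same 4 arrays, so those differences are given below as a description and support nothing by themselves. Of the 36, 29 had a probe set that the platform annotation pairs with that symbol alone, and 27 of these passed the filter on dim signals, out of 7514 genes that passed it across the array. Where a gene had several probe sets, the brightest over the 4 arrays was used.

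RNA came from NF639, an established cell line from a mammary tumour of a mouse carrying the neu (ErbB2) oncogene behind the mouse mammary tumour virus promoter. The original population was compared with an EGCG-resistant pool of the line (EGCG is epigallocatechin 3-gallate, the chief polyphenol of green tea), with 2 arrays in each group and 1 RNA sample per array. Both groups are of the same line, and the resistant cells are a pool and not 1 clone. The submitters describe the RNAs as coming from separate experiments; The sources used here do not give the EGCG dose or time, or whether EGCG was present at harvest. They also do not say whether the array number marks the experiment.

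Genes that sit side by side on a chromosome need not share a function, and this stretch holds genes of many kinds. Its first part, from Mfhas1 to Asah1, corresponds to a stretch of the short arm of human chromosome 8, and its second part, from Frg1 onward, to a stretch of the long arm of human chromosome 4. Human tumours are known to lose parts of both arms, and several members carry names from that work, such as Dlc1 (deleted in liver cancer) and Tusc3 (tumour suppressor candidate). The arrays measured RNA, and DNA was not measured here.

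In the resistant pool, 23 of the 27 members tested lay below the original population and 4 lay above it. The median log2 difference was -0.58, a resistant signal 0.667 times the original one, with the middle of the values between -0.68 and -0.29. Over all 7514 genes tested the median was 0.02, and 47.3% lay below 0. Both resistant arrays were below both original arrays for 21 of the 27 members, where 17.4% of all genes tested showed this order, and above both for 3, where 19.9% of all genes did. Since the members were chosen on this contrast, these shares are no test of it.

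In annotation order (RefSeq, GRCm38.p6) the members do not quite follow their label. Nek1, Sh3rf1 and Palld start past Clcn3 in that assembly, with Cbr4, which is not a member, between Sh3rf1 and Palld. From Mfhas1 to Clcn3 the 25 genes tested are all members, and 23 of them were lower (median -0.59). The 2 tested past Clcn3 were higher.

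The ends of the run were set by the rule on this same contrast, and the genes around them are given as values. Before Mfhas1 (-0.52), the nearest tested genes were Eri1 at 0.27, Saraf at -0.04 and Leprotl1 at 0.13 (log2 difference). Eri1 gave signals of 480.5 and 447.6 on the original arrays, against 636.4 and 495 on the resistant ones. Saraf had 2436.1 and 2332.2, and 2443.5 and 2212.7, and Leprotl1 848 and 665.5, and 769.7 and 876.5. Saraf and Leprotl1 overlapped between the groups, and Eri1 was higher on both resistant arrays. At the far end the values alternated over several genes, with no single step: Galnt7 (-0.73) was followed by Hpf1 at 0.18, Clcn3 at -0.65, Sh3rf1 at 0.41, Cbr4 at -0.09, Palld at 0.62 and Cpe at 0.06. Cbr4 gave signals of 257.7 and 244.9 on the original arrays, against 328.5 and 170.1 on the resistant ones, and Cpe 4747.3 and 3737.7, and 4788.7 and 4049.3. The next gene, Msmo1, had 2642.8 and 1805.5, and 3018.9 and 931.8 (log2 difference -0.38). All 3 overlapped between the groups.

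The 15 tested genes before Mfhas1 had a median log2 difference of 0.01, with 7 lower, and the 15 after Clcn3 that are not members had a median of 0.06, with 4 lower. Without 1 array the median after Clcn3 was 0.38 (resistant 2 left out), 0.17 (original 1), 0.13 (resistant 1) or 0.06 (original 2). The median before Mfhas1 was -0.07 without original 2 or resistant 1, 0.03 without resistant 2 and 0.01 without original 1. Over the 386 other tested genes of chromosome 8 the median was 0.04 and 43.8% lay below 0. A running median of 15 genes along the chromosome reached its lowest value, -0.62, in the window from Tlr3 to Galnt7 centred on Wwc2. In the 357 windows that hold no member it stayed between -0.15 and 0.23. Since the members were chosen on this contrast, a drop among them was set by that choice and is no test.

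**Figure D1:**
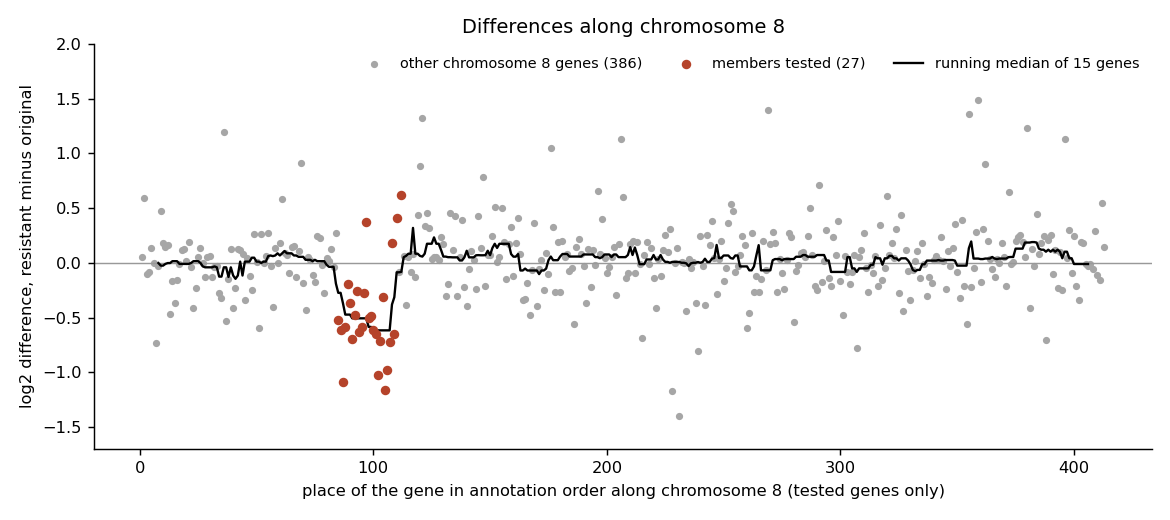
Log2 difference, resistant minus original, of each of the 413 tested genes of chromosome 8 (vertical axis) against its place in annotation order (horizontal axis); red points are the 27 members tested, grey points the 386 others, and the black line is the running median of 15 genes. The line stays near 0 along the chromosome and drops to -0.62 among the members, which were chosen on this contrast.

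Promoter windows of members are shown for 2 pairs of neighbours that bear on the description: Sap30 and Hmgb2, which lie next to each other and were among the lowest, and Hpf1 and Clcn3, which lie next to each other and differed in direction. Each window runs from 250 bases before to 50 after the gene's start (RefSeq, GRCm38.p6), 5′ to 3′ on the gene's strand. Capitals mark CCAAT, the core of the site of the factor NF-Y, and GGGCGG, the core of a GC box, on either strand (reverse complements ATTGG and CCGCCC). The Sap30 window is chr8:57487811-57488110 on the minus strand and that of Hmgb2 chr8:57511593-57511892 on the plus strand. The Hpf1 window is chr8:60890178-60890477 on the plus strand, and the Clcn3 window, 1 of 2 in the table, is chr8:60983262-60983561 on the minus strand.
Sap30: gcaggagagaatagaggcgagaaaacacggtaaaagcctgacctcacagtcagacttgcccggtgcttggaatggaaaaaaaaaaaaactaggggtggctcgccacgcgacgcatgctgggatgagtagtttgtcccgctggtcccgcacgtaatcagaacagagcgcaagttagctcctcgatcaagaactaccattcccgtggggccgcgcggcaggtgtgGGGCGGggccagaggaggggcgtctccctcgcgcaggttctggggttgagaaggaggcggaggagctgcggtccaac
Hmgb2: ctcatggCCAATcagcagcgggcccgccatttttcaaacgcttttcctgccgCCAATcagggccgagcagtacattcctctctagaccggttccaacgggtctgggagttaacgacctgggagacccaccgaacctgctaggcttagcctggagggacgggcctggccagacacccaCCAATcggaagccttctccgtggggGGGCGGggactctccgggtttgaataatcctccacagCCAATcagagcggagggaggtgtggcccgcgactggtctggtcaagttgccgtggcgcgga
Hpf1: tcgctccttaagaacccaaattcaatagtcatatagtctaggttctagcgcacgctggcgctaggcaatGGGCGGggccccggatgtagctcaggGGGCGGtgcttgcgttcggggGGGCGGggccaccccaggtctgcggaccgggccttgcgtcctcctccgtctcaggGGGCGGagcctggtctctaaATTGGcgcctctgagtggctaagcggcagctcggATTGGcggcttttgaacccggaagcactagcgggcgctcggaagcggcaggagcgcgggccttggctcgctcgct
Clcn3: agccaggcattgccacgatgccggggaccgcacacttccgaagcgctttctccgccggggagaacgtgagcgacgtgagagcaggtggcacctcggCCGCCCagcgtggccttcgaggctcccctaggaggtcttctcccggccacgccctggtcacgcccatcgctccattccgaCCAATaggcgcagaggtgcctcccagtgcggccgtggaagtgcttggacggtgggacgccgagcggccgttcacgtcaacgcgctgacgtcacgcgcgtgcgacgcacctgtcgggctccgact

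Hmgb2 held 4 CCAAT matches and 1 GGGCGG match, Hpf1 2 and 4, Clcn3 1 and 1, and Sap30 0 and 1. The other Clcn3 window, not shown, held 0 and 0. Of the tested members 16 had a promoter window, 19 windows in all. None of the 7 tested members from Mfhas1 to Asah1, nor Frg1, had one. The shares below therefore describe only tested members from Tlr3 onward. GGGCGG was found in 14 of the 19 windows (73.7%) and in 35.7% of the 32851 windows of all genes. CCAAT was found in 8 (42.1%), against 37.4% of all windows. The median CpG count was 20 in the members' windows and 7 in all windows, many of which belong to genes that the array does not test. The letters TATAAA were in 1 window of the tested members, of Palld (5.26%, against 13.6% of all). These matches describe sequence only, and members that were lower and members that were higher both held GC boxes.

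Tested members grouped under membranes, secretion and the lysosome were lower in 7 of 7 cases (median log2 difference -0.70), where 23 of all 27 were lower. The members were chosen on this contrast and then sorted into such groups, so no trait of a group is read from these shares. Zdhhc2, a palmitoyltransferase that attaches fatty acid to proteins, gave signals of 534.9 and 397.4 on the original arrays, against 242 and 191.1 on the resistant ones. That is a log2 difference of -1.09 ± 0.25 (SE of the limma fit, n = 2 per group). The resistant signals lay well under both original ones. Spcs3, a subunit of the signal peptidase that trims secreted proteins, had 1846.6 and 1881.2, and 1150.9 and 1114.1 (-0.72 ± 0.16). Galnt7, which starts or extends mucin-type O-linked sugars, had 822.8 and 850.9, and 532.7 and 478.7 (-0.73 ± 0.19). For Spcs3 and Galnt7 the arrays of a group lay close together and far from the other group. Tusc3, a subunit of the oligosaccharyltransferase that adds N-linked sugars, had 1198.5 and 997, and 761.3 and 669.3 (-0.61 ± 0.19). Asah1, the acid ceramidase of the lysosome, had 1438.6 and 1105.5, and 876.2 and 690.7 (-0.70 ± 0.21). Clcn3, a chloride and proton exchanger of endosomes, had 874.8 and 751.6, and 681.3 and 391.5 (-0.65 ± 0.26). In these 3 the groups did not overlap, and in Clcn3 the second resistant array was much the lower. Vps37a, a subunit of the ESCRT-I complex that sorts cargo into endosomes, had 332.4 and 317.9, and 258.9 and 313.1 (-0.19 ± 0.23), a difference smaller than its SE. Aga, a lysosomal hydrolase, was not analysed here.

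Members of the nucleus and RNA metabolism were lower in 6 of 8 cases (median -0.54). Sap30, a subunit of the Sin3 histone deacetylase complex, was the lowest of all members. Its signals were 734.9 and 1125.6 on the original arrays, against 430.1 and 379.3 on the resistant ones (-1.17 ± 0.24). The original arrays differed from each other by 0.62 on the log2 scale, less than the groups did. Hmgb2, a chromatin protein that bends DNA and is abundant in dividing cells, had 2305 and 2570, and 1403.2 and 1086.9 (-0.98 ± 0.18). Both of its probe sets carry suffixes (_a_at and _x_at) for probes that may bind more than 1 transcript, as do those shown for Slc25a4, Clcn3, Cnot7, Irf2, Tlr3, Wwc2, Fbxo8 and Tusc3. Neil3, a glycosylase that removes oxidised bases, had 227.4 and 215.2, and 129.3 and 150.6 (-0.65 ± 0.27). Cnot7, a deadenylase of the CCR4-NOT complex that shortens mRNA tails, had 1114.2 and 1298.6, and 816.8 and 786.7 (-0.58 ± 0.18). Ing2, a histone mark reader that works with Sin3, had 280.8 and 300, and 211.6 and 201.2 (-0.49 ± 0.24). These 3 were lower on each resistant array than on each original one. Frg1, a nuclear protein linked to RNA splicing, had 594.9 and 675.8, and 456.2 and 456.1 (-0.47 ± 0.20).

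The other 2 nuclear members lay above the original population. Irf2, a transcription factor that modulates the interferon response, had 40.3 and 67.5 on the original arrays, against 54.6 and 85.7 on the resistant ones (0.37 ± 0.46). It was dim, its groups overlapped, and its difference was smaller than its SE. Hpf1, the cofactor that directs PARP enzymes to serines, had 1565.6 and 1610.9, and 1877.5 and 1721.9 (0.18 ± 0.16). Its resistant arrays were both above the original ones, by a small margin.

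Among the 5 tested members of growth signalling and the cytoskeleton, 3 were lower and 2 higher. Vegfc, the ligand that drives growth of lymphatic vessels, had 973.5 and 761 on the original arrays, against 351 and 504.8 on the resistant ones (-1.03 ± 0.23). The difference was -1.46 between the arrays numbered 1 and -0.59 between those numbered 2. Wwc2, a scaffold of the Hippo pathway, had 331.4 and 459.6, and 214.3 and 299.9 (-0.62 ± 0.27). Mfhas1, a leucine-rich repeat protein and the first gene of the run, had 347.6 and 265.8, and 212.1 and 209 (-0.52 ± 0.25). Vegfc, Wwc2 and Mfhas1 did not overlap between the groups. Palld, the actin-bundling scaffold palladin, was the highest member, with 643.7 and 772.5, and 1034.2 and 1145.8 (0.62 ± 0.19). Sh3rf1, a ubiquitin ligase and scaffold of JNK signalling, had 103.7 and 93.4, and 141.6 and 122.5 (0.41 ± 0.32). Both lie past Clcn3 and were higher on each resistant array than on each original one. Dlc1 stayed under the filter with signals of 5.7 and 6.1, and 2.1 and 27.7, so no direction is read for it. Mtus1 and Fat1 were not analysed here.

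The remaining members, of the centrosome, mitochondria and other parts of the cell, were lower in 7 of 7 cases (median -0.37). Ufsp2, a protease that releases the ubiquitin-like modifier UFM1, had 521.8 and 670.8 on the original arrays, against 452.3 and 320.9 on the resistant ones (-0.63 ± 0.24). Rwdd4a, a protein with an RWD domain, had 529.4 and 619.7, and 394.6 and 410.2 (-0.51 ± 0.20). Pcm1, the scaffold of the granules around the centrosome, had 286.8 and 325.8, and 232.3 and 240.3 (-0.37 ± 0.24). Slc25a4, the ADP/ATP carrier of the inner mitochondrial membrane, had 6865.9 and 7718.1, and 5570.2 and 6507.5 (-0.27 ± 0.17). These 4 did not overlap between the groups. Cfap97, a protein of cilia and flagella, had 74.7 and 83, and 38.2 and 69.1 (-0.59 ± 0.44), again without overlap but with resistant arrays far apart. Fbxo8, an F-box protein, had 188.9 and 275.2, and 208.9 and 160.1 (-0.31 ± 0.29), and Tlr3, the endosomal receptor for double-stranded RNA, had 90.8 and 63.8, and 92.1 and 43.3 (-0.26 ± 0.46). Fbxo8 and Tlr3 overlapped between the groups. Hpgd, which degrades prostaglandins, stayed under the filter (1.1 and 1.3, and 9.1 and 1.6). Nek1, Acsl1 and Dctd, and Cdkn2aip of the nuclear group, were not analysed here.

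**Figure D2:**
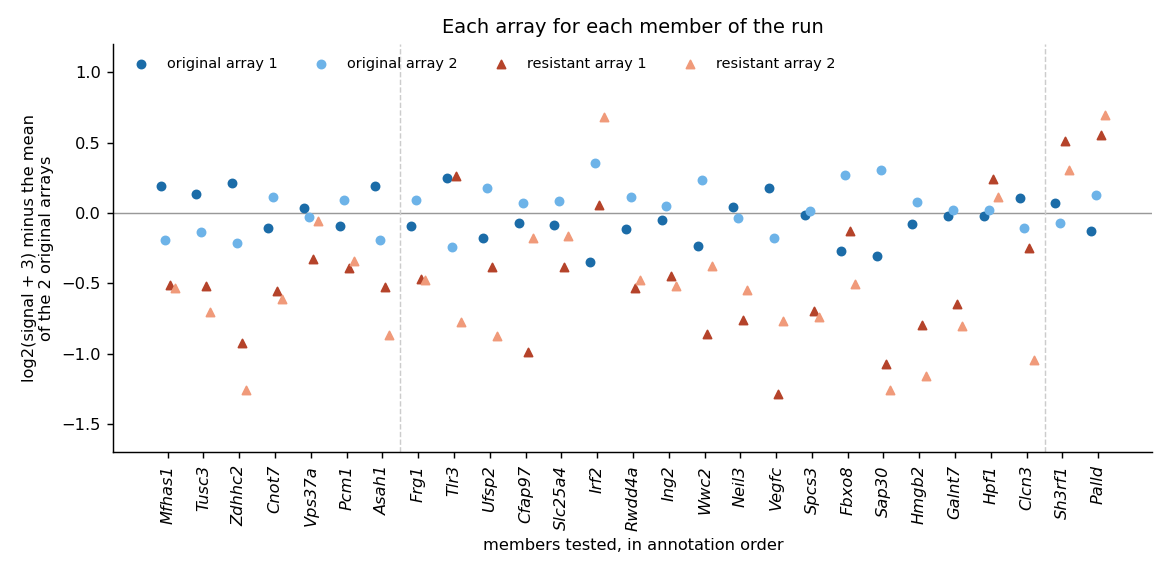
Each array's log2(signal + 3) for the 27 members tested, in annotation order, with the mean of the 2 original arrays set to 0 (vertical axis); circles are original arrays, triangles resistant arrays, and dashed lines mark the steps from Asah1 to Frg1 and from Clcn3 to Sh3rf1. Triangles lie under the circles for most members and above them for Hpf1, Sh3rf1 and Palld.

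Of the 27 members tested, 18 lay between -0.75 and -0.25. This window was not part of the planned design, and the share of all genes in a window of that width was not computed. The middle of the members' values, -0.68 to -0.29, was no narrower than that of all genes tested, -0.16 to 0.19. The part from Mfhas1 to Asah1 had a median of -0.58 over 7 genes, all lower, and the part from Frg1 to Clcn3 a median of -0.60 over 18 genes, 16 of them lower. The median array value of the 27 members, each gene measured about its own mean, was 0.20 and 0.29 for the original arrays, against -0.24 and -0.27 for the resistant ones. The same over all genes tested was 0.02 and -0.02, and 0.04 and -0.01. Within the original population the members' median difference of array 2 minus array 1 was 0.10, and within the resistant pool it was -0.05. The lower level of the members was thus present on each resistant array against each original array, and the arrays of 1 group lay close together.

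Further probe sets of the same genes that passed the filter gave values of the same sign. Among those under the filter, Cfap97 (0.49), Pcm1 (0.06) and Slc25a4 (0.04) had the other sign. Tlr3 (-1.31), Wwc2 (-0.62) and Sh3rf1 (0.80) had the same sign there. At such dim signals no direction is read. In 11 members more than 1 probe set passed the filter, with 21 further probe sets in all, and each of the 21 had the sign of the brightest one (median -0.50). The 3 probe sets of Galnt7 differed by -0.73, -0.61 and -0.97, and the 4 of Clcn3 by -0.65, -0.48, -0.67 and -0.42. For Cnot7 they differed by -0.58, -0.75 and -0.59. For Zdhhc2 they spread most, at -1.09, -1.45 and -0.11, and the third, the dimmest, overlapped between the groups. The second probe set of Sh3rf1 was at 0.26, on arrays that overlapped between the groups (66.7 and 90 original, 85.1 and 102.3 resistant). These probe sets were hybridised with the same RNA, so they repeat the gene's measurement and not the culture.

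The arrays were compared in pairs of the same number because the spiked bacterial controls BioB, BioC and BioD, added to each hybridisation, were brighter on array 2 of each group. The ratio of array 2 to array 1 was 1.39 to 2.36 in the original and 1.39 to 2.46 in the resistant arrays, though no label names a batch. Between the arrays numbered 1 the members' median log2 difference was -0.42, with 21 of 27 lower, and between those numbered 2 it was -0.57, with 23 lower. The same 21 were lower in both pairs. Over the 27 members the differences in the pairs correlated at r = 0.63 (Spearman correlation 0.48), which is a description over genes that share 4 arrays. The direction held in both pairs for most members. It differed for Fbxo8 (0.14 between the arrays numbered 1, -0.77 between those numbered 2) and Tlr3 (0.02 and -0.53). The sizes differed widely between the pairs for Vegfc, Sap30, Ufsp2, Cfap97 and Clcn3, among others.

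**Figure D3:**
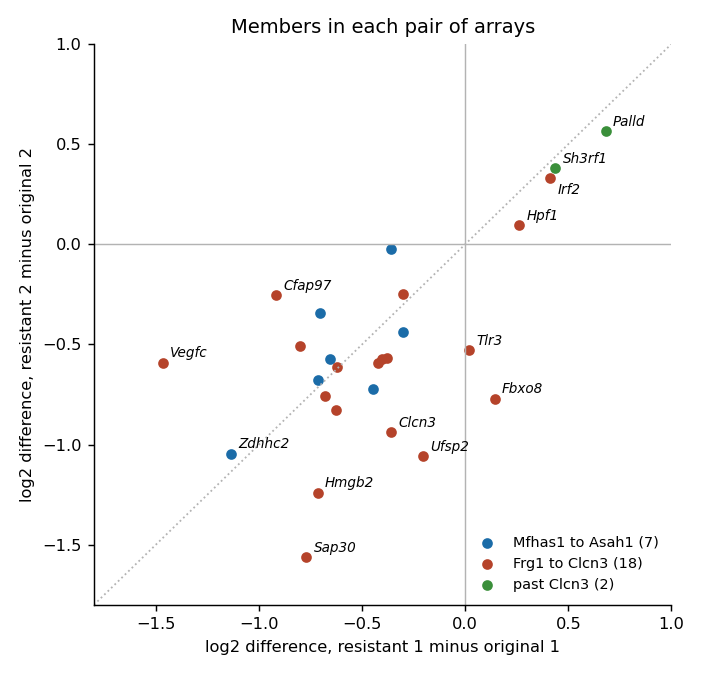
Log2 difference of each of the 27 members tested between the arrays numbered 1 (horizontal axis) and between those numbered 2 (vertical axis), coloured by stretch of the run; the dotted line marks equal values. Of the points, 21 lie below 0 on both axes, and Palld, Sh3rf1, Irf2 and Hpf1 lie above 0 on both.

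In limma fitted over all 13576 probe sets, with Benjamini-Hochberg adjustment at 0.05, 0 of the 27 members passed, where 0.319% of all genes tested did. At an unadjusted p under 0.05 there were 15 members lower and 1 higher, where 4.02% of all genes were lower and 4.07% higher at that p. With the array number as a term, 11 members passed lower and 1 higher (Palld), where 3.19% of all genes passed lower and 2.87% higher. The 11 were Tusc3, Zdhhc2, Cnot7, Asah1, Ufsp2, Vegfc, Spcs3, Sap30, Hmgb2, Galnt7 and Clcn3. The rule used this contrast, so nothing is read from these counts.

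Partners of members in known complexes and pathways, encoded elsewhere in the genome, were not lower as a whole. The members were chosen on this contrast, so a gap between members and their partners is no test. Over 100 tested partner genes in 10 lists the median log2 difference was 0.04, with 41 lower and 59 higher. None of the 100 passed in limma with adjustment over all probe sets; at an unadjusted p under 0.05 there were 2 lower and 5 higher, near the 4.02% and 4.07% of all genes. With the array number as a term, 2 passed lower and 5 higher, where 3.19% of all genes passed lower and 2.87% higher.

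In the Sin3 histone deacetylase list, beside Sap30 at -1.17 and Ing2 at -0.49, 10 of 11 partners lay above 0 and the median was 0.10. The Sap30 paralogue Sap30l was at 0.33 and Brms1 at 0.21, the largest differences in that list. In the CCR4-NOT list, beside Cnot7 at -0.58, 9 of 11 lay above 0 (median 0.13). Tob1, an adaptor that binds the deadenylases, was at 0.67 and Cnot3 at 0.57, and both passed higher with the array number as a term. Cnot8, the close relative of Cnot7, was at 0.13 with arrays that overlapped between the groups.

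The oligosaccharyltransferase list differed from these in that 8 of 11 partners of Tusc3 were lower, with a median of -0.15. Ostc was at -0.54 (3301.5 and 3140.6 in the original, 2091.1 and 2344.5 in the resistant arrays), and passed lower with the array number as a term. Rpn1 followed at -0.34, and Magt1, which can take the place of Tusc3 in the complex, at -0.33. Of the pericentriolar and ciliary partners of Pcm1, 6 of 7 were lower (median -0.16). Ssx2ip was at -0.86, passing lower with the array number as a term, and Nek8 at -0.48. In both lists more partners lay below 0 than above, and a difference between lists was not tested.

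The lysosomal hydrolases, beside Asah1 at -0.70, had a median of 0.04 over 24 genes, 16 of them above 0. Ctsd was at 0.76 and Arsa at 0.69, both passing higher with the array number as a term. The partners of the repair factors Neil3 (-0.65) and Hpf1 (0.18) had a median of 0.19, with 8 of 9 above 0, among them Adprs at 0.44 and Ogg1 at 0.23. For ESCRT-I, beside Vps37a at -0.19, the median was 0.12 over 7 genes, with Tsg101 at 0.38 and Ubap1 at 0.28. For ATP exchange, beside Slc25a4 at -0.27, the median was 0.09 over 6 genes. The largest differences there were Vdac1 at 0.18 and Slc25a3 at 0.14, and the sister carrier Slc25a5 was at 0.11.

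For the double-stranded RNA and interferon list, beside Tlr3 at -0.26 and Irf2 at 0.37, the median was -0.04 over 8 genes, with Stat2 at -0.55 and Ifih1 at -0.42 on overlapping arrays. Of the VEGF ligands and receptors, beside Vegfc at -1.03, 5 of 6 lay below 0 (median -0.19). Nrp1, a co-receptor, was the exception at 0.55 and passed higher with the array number as a term, and Flt1 was at -0.39. Flt4, the main receptor for VEGF-C, stayed under the filter with signals of 35 and 4.7, and 17 and 18.8.

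Leaving out 1 array moved the list medians by more than their size in several lists, so the sign of a small median is not read. The lysosomal hydrolases went from 0.04 to 0.38 without original 1, -0.23 without original 2, -0.08 without resistant 1 and 0.21 without resistant 2. ESCRT-I went to -0.01 without original 1, 0.25 without original 2, 0.19 without resistant 1 and 0.02 without resistant 2. The ATP exchange list went to 0.04, 0.13, 0.23 and -0.02 without these arrays in the same order, and the double-stranded RNA and interferon list to 0.05, -0.25, -0.25 and -0.02. The other 6 lists kept the sign of their median. In the same order of arrays, CCR4-NOT went to 0.08, 0.18, 0.08 and 0.22, the Sin3 list to 0.06, 0.12, 0.02 and 0.18, and the repair partners to 0.28, 0.09, 0.29 and 0.10. The VEGF list went to -0.09, -0.21, -0.23 and -0.05. The oligosaccharyltransferase partners went to -0.19, -0.19, -0.13 and -0.30, and the pericentriolar partners to -0.26, -0.14, -0.34 and -0.13.

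**Figure D4:**
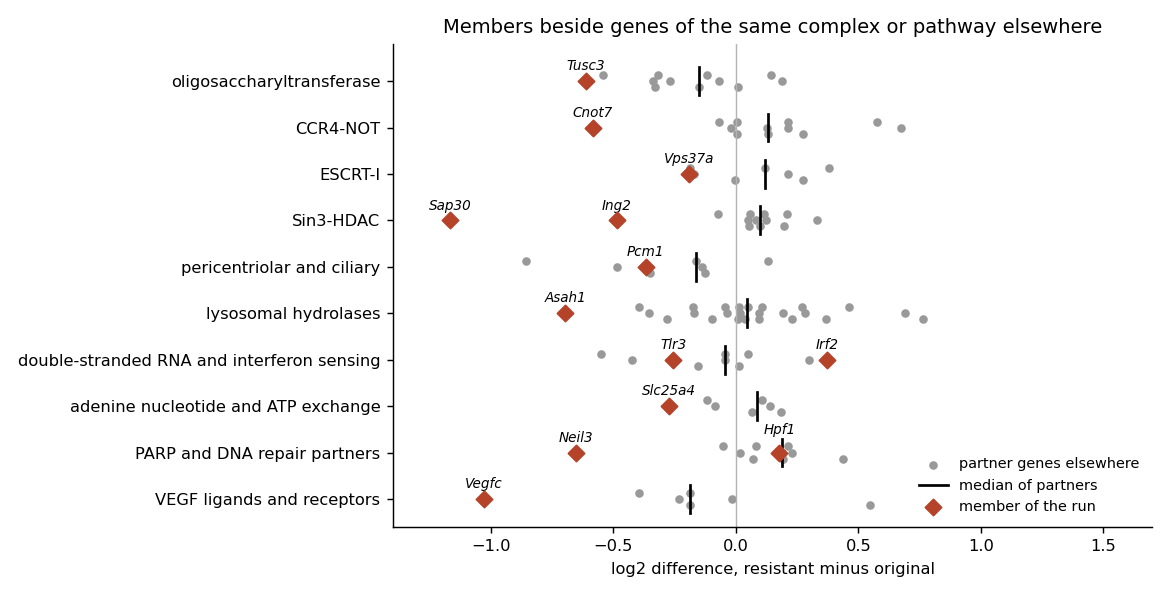
Log2 difference, resistant minus original (horizontal axis), of members of the run (red diamonds, named) and of the tested partner genes of the same complex or pathway elsewhere in the genome (grey points, black bar at their median), by list. Sap30, Ing2, Cnot7, Tusc3, Asah1, Neil3, Vps37a, Slc25a4 and Vegfc lie left of every tested partner in their lists. Vps37a is nearly level with its partner Mvb12a (both -0.19). Irf2 and Hpf1 lie to the right of 0. The members were chosen on this contrast, so their place left of the partners is no test.

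Facts of the arrays that bear on these values are few. Median signals were 135.2 and 115.2 on the original arrays, against 128.6 and 114 on the resistant ones, and the deposited arrays share nearly the same trimmed mean (496.8 to 497.8), so differences are relative to the rest of each array. The number of arrays, 2 per group, limits the precision, and p-values cover only the spread between these samples. Of 10 epithelial markers 9 were under the filter, among them Krt8, Krt18, Cdh1 and Epcam, and Erbb2 was the 1 tested (319.7 and 299.4, and 280.7 and 326.2), so the epithelial character of a mammary tumour line is not seen in these markers (the labels say only breast cancer cell line). The summed epithelial signal was 482 and 466 on the original arrays, against 432 and 478 on the resistant ones. The mesenchymal markers held Vim at 15875.5 to 19936.1, and their sum was 26250 and 25700, and 25790 and 26860. Vim makes up most of that sum, which can therefore hide changes in the other markers. Single mesenchymal markers did move with the groups. Of 8 tested, Col3a1 passed higher in limma (325.9 and 257.7 against 1714.8 and 782.6). With the array number as a term 4 passed higher and 2 lower, where 2.87% of all genes passed higher and 3.19% lower. Among these 6, Dcn was at -2.15 and Postn at 1.88. Leukocyte (2 of 7 tested), endothelial (0 of 5) and adipocyte (0 of 3 with a probe set) markers were low, with summed signals of 192 to 242, 41.4 to 70.5 and 19.1 to 33.7. All of these sums overlapped between the groups, and the part of these markers in the members' values was not tested. In bulk RNA fewer cells with a transcript and less of it per cell cannot be told apart.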

How the data were processed

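RNA from 4 samples was hybridised to Affymetrix Mouse 430A 2.0 arrays. The deposited values are linear MAS5 signal intensities per probe set, per the submitters' processing notes; for that software, a version was not given in the sources used here. Of 22690 probe sets, 64 array controls were left out. Each array was rescaled so that its 2% trimmed mean was equal, and log2(signal + 3) was taken, which understates differences of dim genes. Probe sets with a mean signal under the 40th percentile (51.9) were left out, which left 13576. limma 3.58.1 (R 4.3.3; lmFit, eBayes with a trend) fitted resistant minus original, two-sided, with Benjamini-Hochberg adjustment at 0.05; standard errors are from that fit. It was also run on simulated data with independent noise. The planted changes were larger than most members' differences, and recovery was checked only for the largest of them. That run does not show how well differences like the members' are recovered.

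Probe sets with 1 symbol numbered 20380; 691 with several and 1555 unnamed were not used for genes. RefSeq's GRCm38.p6 table gave gene order, and 20351 matched it by gene identifier. Promoter windows were matched for 21 of 36 members, none of them from Mfhas1 to Asah1. Members and lists were chosen with earlier results of these data known. Full values are given for the 6 tested members with the largest difference each way, both ends of the run and the 3 nearest tested genes outside each end. The 2 largest differences of each partner list, and any call, are named with their log2 difference; the other members, Slc25a5, Cnot8, Magt1 and Flt4 are named beyond that rule. Alternatives changed the normalization, pseudocount, filter, variance trend, probe set choice, array block and each array in turn.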

Additional observations from a re-analysis of the deposited data

How the results depend on the processing

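Of 27 tested members, 23 were lower, and 22 or 23 were in each fit that kept all 27; the 60th percentile filter left 19 of 21, and leaving out probe sets ending in _s_at, _x_at or _a_at 17 of 20. The median log2 difference of -0.58 was -0.52 with quantile normalization, -0.50 and -0.45 with pseudocounts of 16 and 64, -0.52 without the filter and -0.52 without those probe sets; leaving out 1 array gave -0.57 to -0.47. Members past Clcn3 were left out in an alternative chosen after seeing the data (-0.59). Of the 6 lowest members, the 4 higher ones and both ends of the run, Clcn3 moved most without 1 array. Its -0.65 went to -0.25 without resistant 2 and -1.04 without resistant 1. Irf2 (0.37) went to 0.02 without original 1, 0.06 without resistant 2, 0.68 without resistant 1 and 0.72 without original 2. Sap30 (-1.17) went to -1.47 without original 1 and -0.86 without original 2. Vegfc (-1.03) went to -0.77 without resistant 1 and -1.29 without resistant 2. Zdhhc2 (-1.09) went to -0.88 without original 1 and -1.30 without original 2. Mfhas1 (-0.52) went to -0.33 without original 1, and Hpf1 (0.18) to 0.12 without resistant 1.

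The 31 probe sets called over the array became 8 with quantile normalization, 5 without the filter, 11 with the 60th percentile filter, 5 without a variance trend and 740 with the replicate block; leaving out 1 array gave 81 to 125. Members called were 0, 12 with the block, and 0 to 2 without 1 array (2 without original 1 or resistant 1, 1 without resistant 2, 0 without original 2). Deviations of same-numbered arrays from their group means correlated at 0.38 over genes; with 2 pairs and no label this does not establish a pairing. The medians of flanking and partner genes, 0.05 and 0.04, ran from -0.015 to 0.11 and from -0.025 to 0.080 without 1 array. The cause of these shifts was not tested. Of 284 alternative values of the named members, each flank and each partner list, 266 stayed within 1 SD of the replicates. Much of this count was fixed in advance. The block and both filter alternatives leave a single gene's difference as it was. For a single gene, leaving out 1 array cannot move the difference by more than 1 SD of its replicates. The count is therefore no measure of how steady the named members are. Signals near the floor limit what is measured for Dlc1, Hpgd, Irf2, Tlr3 and Cfap97.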

Other observations

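Between Mfhas1 and Clcn3 the array also held probe sets for 25 genes that are not members, and 0 of them passed the filter on dim signals. Their mean signals reached 42.8 at most (Slc7a2, a carrier of cationic amino acids, at -0.47), and 17 of the 25 lay below 0. Hand2, a transcription factor of heart and limb development, was listed at a mean signal of 16.1 with both resistant arrays above both original ones. At these levels the values carry no direction. The interval holds 108 protein-coding genes in the RefSeq order used, of which 51 had a probe set of 1 symbol here; the others were not analysed here.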
